A study of Saccharomyces cerevisiae with 16 samples.

Results

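The mitochondrial nucleotide and metabolite carriers described here are 10 yeast genes: the ADP/ATP carriers AAC1 (YMR056C), PET9 (YBL030C) and AAC3 (YBR085W), the phosphate carrier MIR1 (YJR077C), the oxaloacetate carrier OAC1 (YKL120W), the dicarboxylate carrier DIC1 (YLR348C), the citrate carrier CTP1 (YBR291C), the citrate and oxoglutarate carrier YHM2 (YMR241W), and the oxodicarboxylate carriers ODC1 (YPL134C) and ODC2 (YOR222W). They were taken by name from the platform annotation, each through the 1 probe set that carries it alone, and are 10 of the 5656 genes with such a probe set; all 10 were among the 5410 genes tested. Every group is the same laboratory yeast, Saccharomyces cerevisiae CEN PK 113-7D and the labels name no other genotype or agent. The cells grew with oxygen in a chemostat limited by its carbon supply (0.05 volumes exchanged per hour, 30 degrees C, pH 5), until injected glucose brought the free sugar to about 1 g per litre (5.56 mM). RNA was hybridized from the steady state before this pulse (3 arrays), from 120 s and 300 s after it (3 each), from 30 s, 60 s and 330 s (2 each) and from 210 s (1), and the number of the pulse experiment in each title served as the replicate number.

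The inner mitochondrial membrane lets few metabolites through, and the carrier family supplies the passages: each protein exchanges or co-transports particular ions across that membrane. The ADP/ATP carriers bring ADP to the ATP synthase and release ATP, and the phosphate carrier brings the phosphate that is joined to it. Carriers of oxaloacetate, malate, citrate and oxoglutarate connect the TCA cycle in the matrix with cytosolic biosynthesis, and several of their substrates are precursors of amino acids. In yeast, PET9 is the main ADP/ATP carrier of respiring cells, AAC1 a minor form, and AAC3 the form known from oxygen-poor growth.

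Signals are intensities after each array was scaled to a trimmed mean of 150, with values under a floor of 12 set to 12. Array means as deposited ran from 82.8 to 326 before scaling. Between arrays of 1 time the median gene differed by 0.157 to 0.279 on the log2 scale. A gene is said to have risen or fallen where the limma fit over all 5410 genes gave a Benjamini-Hochberg adjusted p under 0.05. Of the 10 carriers, 9 lay above the floor on all 16 arrays and AAC3 did so on 6. Of genes that mark the mating types, all 5 of haploid a cells were above the floor on all 16 arrays. Among the 3 markers of alpha cells, MF(ALPHA)1 ran from 184 to 372 and STE3 from 28.6 to 56.9, while MF(ALPHA)2 was above the floor on 2 arrays. Among 4 markers of sporulating diploids, SPO11 was at the floor on all arrays and the others reached at most 87.4. The part of such cells in the results was not tested. In bulk RNA, fewer cells of a type and less RNA per cell cannot be told apart.

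No carrier passed the test within the first 120 s, by 300 s OAC1, CTP1, YHM2 and AAC3 had risen (AAC3 close to the floor) and ODC1 had fallen, and at 330 s ODC2 stood among the risen and AAC1 and DIC1 among the fallen. At 30 s and 60 s, 0 of the 10 carriers and 0% of all 5410 genes passed limma's threshold, and 0 carriers had an unadjusted p under 0.05, which 6.21% of all genes had at 30 s and 6.34% at 60 s. The log2 values of the carriers lay between -0.06 and 0.39 at 30 s and between -0.27 and 0.35 at 60 s. At 120 s, 0 of 10 passed, against 0.0739% of all genes, and 1, OAC1, had an unadjusted p under 0.05, as had 10.8% of all genes. With the pulse number as a term in the fit, OAC1 passed there (limma adjusted p = 0.00266), among 13 of all genes. At 300 s, 4 of 10 had risen, against 12.1% of all genes, and 1 had fallen, against 18.3%. The 4 include AAC3, which met the filter on dim genes only through its late arrays. At 330 s, 4 had risen and 3 had fallen, against 13.3% and 24.3%. Over the whole course, 6 of 10 passed limma's moderated F test, against 35.5% of all genes. The median log2 change of the carriers was 0.29 at 300 s and -0.07 at 330 s, beside -0.12 and -0.19 for all genes. The plot of signals by time gives every array.

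**Figure D1:**
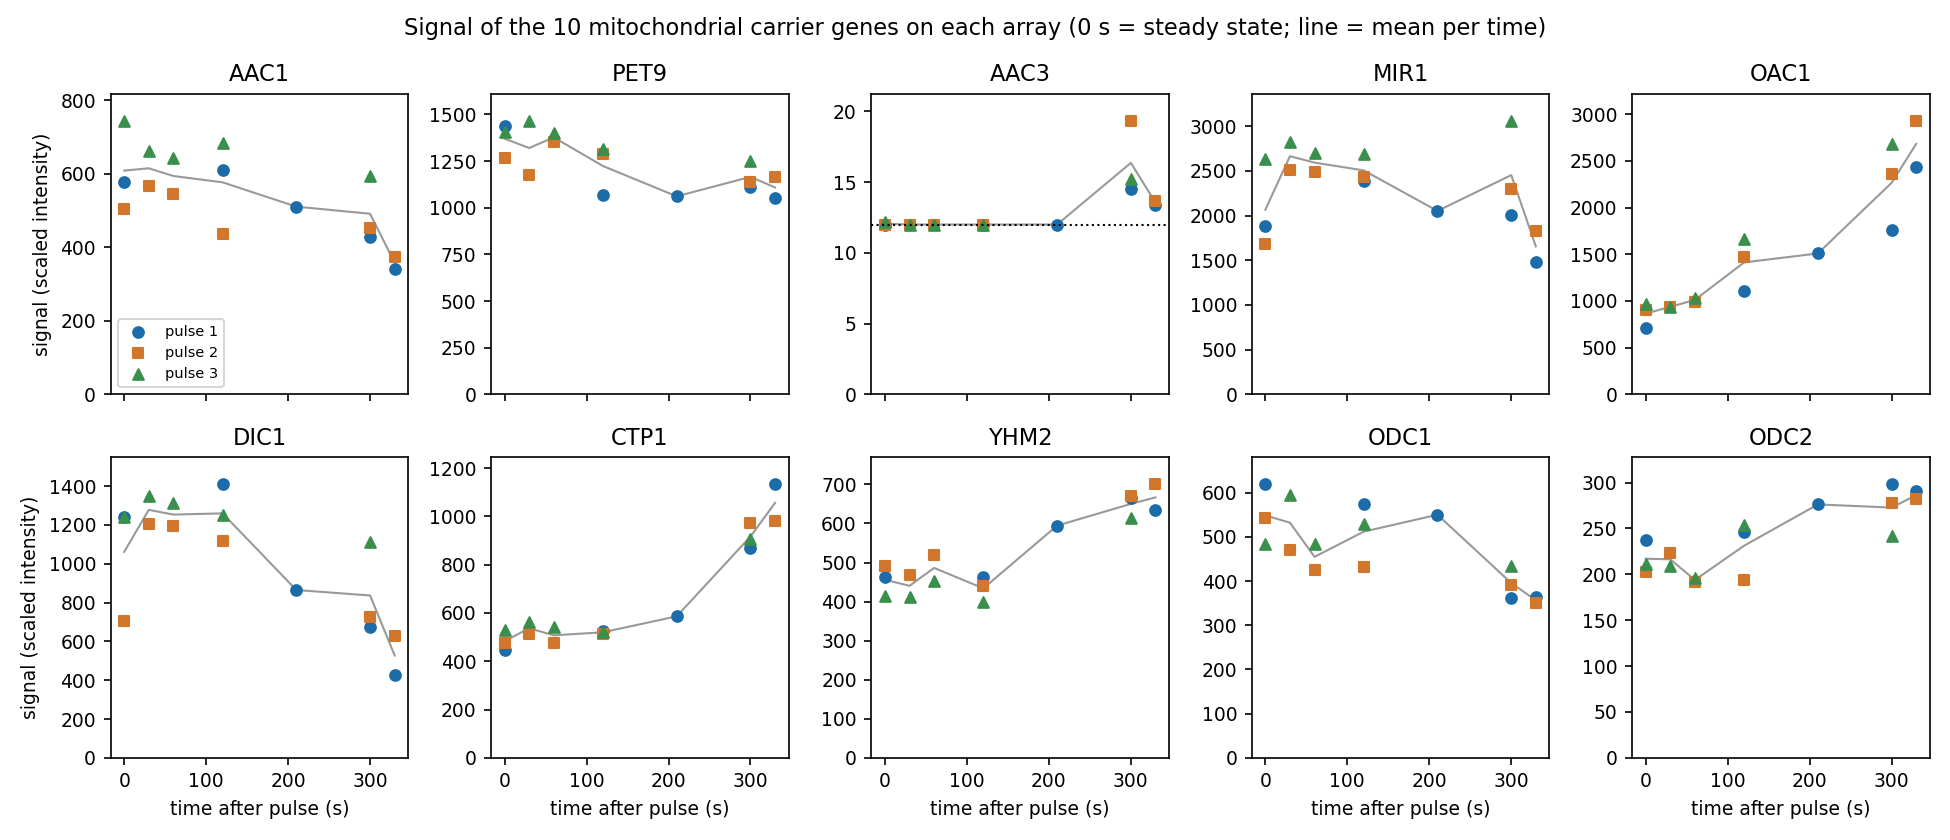
Signal (scaled intensity, linear axes from 0) of each of the 10 carrier genes against time after the pulse, with 0 s the steady state; each point is 1 array, its shape and colour give the pulse number, the line joins the means, and the dotted line in the AAC3 panel is the floor of 12. OAC1, CTP1 and YHM2 end above all their steady-state arrays, ODC1, AAC1 and DIC1 end below theirs, and AAC3 stays at or near the floor. Of all genes, 19% lay above and 36.1% below all steady-state arrays at 330 s.

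The split between risen and fallen carriers depends on how arrays are put on a common scale, since centring each array on its median shifts the median of all genes by 0.16 log2 units at 300 s and 0.16 at 330 s. With that centring 5 carriers had risen and 0 fallen at 300 s, beside 877 and 537 of all genes. At 330 s the numbers were 4 and 0, beside 917 and 831. With quantile normalization they were 4 and 2 at 300 s, beside 781 and 766 of all genes, and 4 and 5 at 330 s, beside 851 and 1126. As reported, all genes gave 656 and 992 at 300 s and 720 and 1314 at 330 s. Over all genes the share of rises among the called genes at 300 s was 39.8% as reported, 62% with median centring and 50.5% with quantile normalization, and at 330 s 35.4%, 52.5% and 43%. The rises of OAC1, CTP1 and YHM2 passed under all 3 scalings at both times. Both 330 s arrays were hybridized on a day of their own, so that at 330 s time and day cannot be told apart.

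OAC1 encodes the carrier that brings oxaloacetate into the matrix and that in yeast also exports isopropylmalate, an intermediate of leucine synthesis. It showed the largest rise of the 10 and was the only one of them with an unadjusted p under 0.05 at 120 s. Its signal was 715, 906 and 972 on the steady-state arrays, 940.2 and 934 at 30 s and 991 and 1032 at 60 s. At 120 s it was 1108, 1468 and 1663, at 300 s 1761, 2358 and 2679 and at 330 s 2436 and 2929, with 1509 on the 210 s array. Both 60 s arrays and all arrays from 120 s on lay above all 3 steady-state arrays, a separation that 4.16% of all genes showed upward at 120 s. The share of all genes at 60 s is not given here, and the log2 change of 0.24 at 60 s did not pass (limma adjusted p = 0.827). At 120 s the log2 change was 0.70 ± 0.17 (SE) (unadjusted p = 0.0011, limma adjusted p = 0.22), which did not pass. The 120 s change passed with the pulse number as a term (limma adjusted p = 0.00266) or the array-number series as a term (0.0184). At 300 s it was 1.38 ± 0.17 (SE), a 2.60-fold rise (limma adjusted p = 3.35e-05), and at 330 s 1.64 ± 0.20 (SE), a 3.12-fold rise (limma adjusted p = 1.38e-05). Between 120 s and 300 s it rose by a further 0.68 (limma adjusted p = 0.0105). Within the hybridization day that holds replicate 3 of the steady state, 120 s and 300 s, 1 array of each, the differences from steady state were 0.77 and 1.46. On the other day with arrays of both times, the 300 s value was 0.96. There the 300 s array of pulse 1 stood against the steady-state array of pulse 2.

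CTP1 encodes the citrate carrier, which exchanges matrix citrate with cytosolic anions. It passed no test through 120 s and rose after it. Its signal was 445, 476 and 528 at steady state, 512 and 562 at 30 s, 475 and 539.7 at 60 s and 523, 515 and 522 at 120 s. At 300 s the arrays gave 869.6, 974 and 906, and at 330 s 1132 and 979.6, with 586 at 210 s. The 10 arrays up to 120 s and the 5 from 300 s on did not overlap, and the 210 s array lay between them. The share of all genes with that split was not computed. Against steady state alone, 14.1% of all genes were separated upward at 300 s and 19% at 330 s. The mean went from 483 ± 42.1 (SD, n = 3) to 916 ± 52.8 (SD, n = 3) at 300 s, a 1.90-fold rise (log2 0.93 ± 0.11 (SE), limma adjusted p = 1.56e-05). At 330 s the rise was 2.19-fold (limma adjusted p = 5.17e-06). Of the 10 carriers it had the lowest adjusted p at both times. Within a hybridization day, 1 array against 1, the 300 s difference was 0.78 and, between arrays of different pulses, 0.87 log2 units.

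YHM2, which encodes a carrier that exchanges citrate for oxoglutarate, rose less. Its signal was 463, 490.3 and 415 at steady state, 468 and 413 at 30 s, 519 and 454 at 60 s and 463, 441 and 398 at 120 s. It was 666, 669 and 615 at 300 s and 634 and 700.1 at 330 s, and the 210 s array gave 594. All 5 late arrays lay above all 10 arrays up to 120 s, whose highest was 519, and so did the 210 s array. How many genes do so was not computed, and 14.1% were separated upward from steady state at 300 s and 19% at 330 s. The rise was 1.43-fold at 300 s (log2 0.51 ± 0.11 (SE), limma adjusted p = 0.00289) and 1.46-fold at 330 s (limma adjusted p = 0.00307). From 120 s to 300 s it rose by 0.58 ± 0.11 (SE) (limma adjusted p = 0.00135). The within-day differences at 300 s, 1 array against 1, were 0.57 and, between arrays of different pulses, 0.44. At 120 s neither citrate carrier passed, and the 95% interval of the log2 change from steady state was -0.12 to 0.34 for CTP1 and -0.31 to 0.17 for YHM2.

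ODC1 and ODC2 encode a pair of related carriers that move oxoglutarate and oxoadipate, the latter an intermediate of lysine synthesis, and at 330 s ODC1 had fallen while ODC2 had risen. ODC1 gave 619, 542 and 484 at steady state, 470.3 and 594 at 30 s, 425 and 484 at 60 s and 575, 431 and 529 at 120 s. It gave 549.9 at 210 s, 361, 391 and 435 at 300 s and 363 and 349.6 at 330 s. ODC2 gave 238, 203 and 211 at steady state, 223 and 209 at 30 s, 192 and 196 at 60 s and 246, 194 and 254 at 120 s. Its later signals were 276 at 210 s, 298, 278 and 242 at 300 s and 291 and 282 at 330 s. For either gene the late arrays did not overlap the steady-state arrays, ODC1 below and ODC2 above, while the 120 s arrays overlapped them. Both 60 s arrays of either gene also lay below all 3 steady-state arrays, for ODC2 on the side opposite to its late arrays. For ODC1 the margin was narrow (483.86 against 483.97), and neither gene passed at 60 s (limma adjusted p = 0.804 and 0.848). Of all genes, 14.1% were separated upward and 23.6% downward at 300 s, and 19% and 36.1% at 330 s. ODC1 fell 1.38-fold at 300 s (log2 -0.47 ± 0.14 (SE), limma adjusted p = 0.0192) and 1.53-fold at 330 s (limma adjusted p = 0.00613). Both calls were lost with median centring (log2 -0.30 and -0.45, limma adjusted p = 0.208 and 0.0812). The call at 300 s was also lost with hybridization day in the fit, and without steady-state replicate 1, 300 s replicate 1 or 300 s replicate 2 (log2 -0.38, -0.40 and -0.46). Within a hybridization day, 1 array against 1, its 300 s difference was -0.15 and, between arrays of different pulses, -0.59. At 300 s the ODC2 change on the log2 scale was 0.33 ± 0.13 (SE), which did not pass (limma adjusted p = 0.0658), and at 330 s ODC2 had risen 1.32-fold (log2 0.40 ± 0.14 (SE), limma adjusted p = 0.0379). The ODC2 call at 330 s did not hold in 10 of the 30 alternatives, including without either 330 s array or without steady-state replicate 2 or 3 (log2 values from 0.36 to 0.42).

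The ODC1 and ODC2 changes were also compared with each other. The log2 difference of the ODC1 and ODC2 signals on 1 array, which a change of array scale leaves untouched while both genes are above the floor, was 1.38, 1.42 and 1.20 at steady state and 1.23, 1.15 and 1.06 at 120 s. It was 0.27, 0.49 and 0.85 at 300 s and 0.32 and 0.31 at 330 s. From steady state to the 5 late arrays ODC1 changed by -0.89 log2 units relative to ODC2 (exact two-sided permutation test of 5 against 3 arrays, p = 0.0179, the smallest it can give, and 0.0238 adjusted over 4 pairs of related carriers). The 2 pairs with AAC3 reached the same p, which lowers this adjusted value, and an adjustment without them was not computed. AAC1 relative to PET9 changed by -0.22 with overlapping arrays (exact permutation p = 0.161 and 0.161 adjusted). The 5 late arrays come from 3 pulses, as do the steady-state arrays, so this test treats arrays that share a pulse as separate. With 300 s alone, 1 array per pulse, the ODC1 and ODC2 difference was -0.80 and the arrays did not overlap, but 3 against 3 arrays cannot go below an exact p of 0.1 (0.133 adjusted). The other 2 pairs hold AAC3, which the floor sets on 2 of the 3 steady-state arrays, and their size is not interpreted: AAC3 relative to PET9 was 0.59 with the floor of 12 and 1.25 with a floor of 6, and AAC1 relative to AAC3 -0.81 and -1.47. The levels of different probe sets are not compared by these differences, only their changes. The plot of log2 differences shows both pairs.

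**Figure D2:**
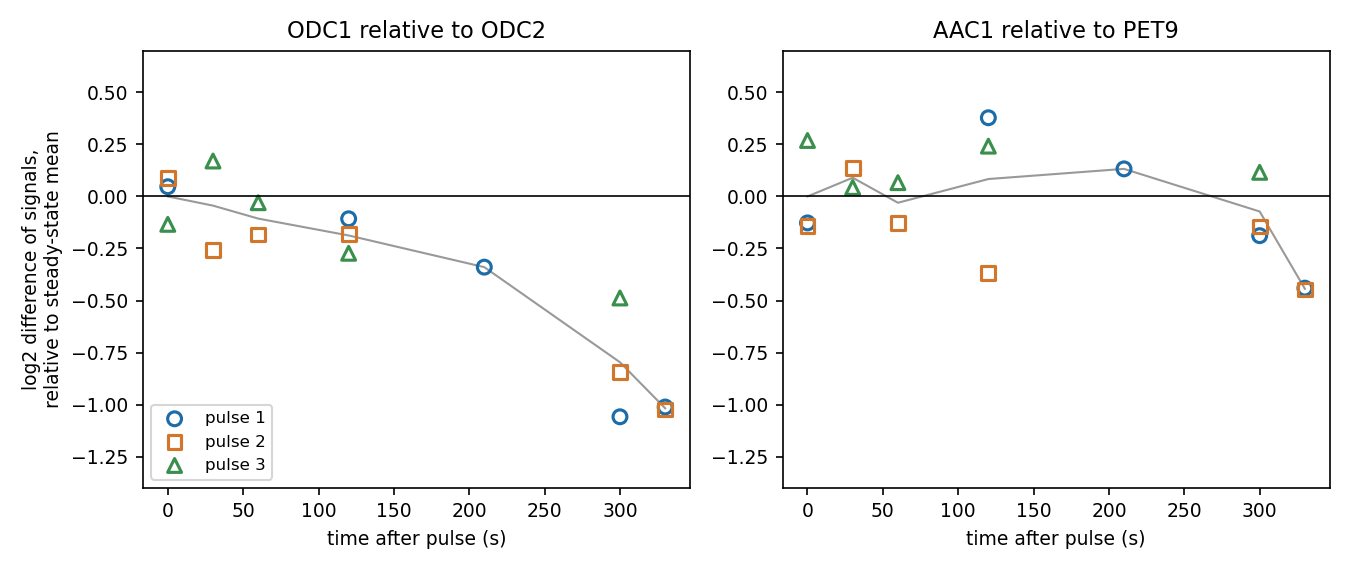
Log2 difference between the signals of 2 related carriers on each array, minus its steady-state mean, against time after the pulse, for ODC1 relative to ODC2 (left) and AAC1 relative to PET9 (right); each point is 1 array, shape and colour give the pulse number, and the line joins the means. The 5 late arrays of ODC1 relative to ODC2 lie below all 3 steady-state arrays, while the AAC1 and PET9 values overlap, and the 330 s points of pulses 1 and 2 nearly coincide in either panel.

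Of the ADP/ATP carriers, AAC1 fell at 330 s, AAC3 rose at 300 s close to the floor, and PET9 did not pass at either time. AAC1, the minor form, gave 579, 503 and 744 at steady state, 567 and 663 at 30 s, 544 and 644 at 60 s and 611, 437 and 683 at 120 s. It gave 511 at 210 s, 428, 452 and 594 at 300 s and 341 and 375 at 330 s. The 300 s arrays overlapped the steady state and both 330 s arrays lay below all of it, as in 36.1% of all genes. Its log2 value at 300 s was -0.31 ± 0.18 (SE), which did not pass (limma adjusted p = 0.219), and at 330 s it fell 1.68-fold (log2 -0.75 ± 0.20 (SE), limma adjusted p = 0.00919). That call was lost with median centring (log2 -0.58, limma adjusted p = 0.0975) and without 330 s replicate 1 (log2 -0.68, limma adjusted p = 0.0838). PET9, the main form, had the narrowest range, highest over lowest, of the 9 carriers above the floor throughout, from 1054 to 1466 over all 16 arrays. It gave 1439, 1265 and 1407 at steady state and, from 30 s to 120 s, 1071 to 1466. Its signal was 1061 at 210 s, 1110.5, 1138 and 1249 at 300 s and 1054 and 1163 at 330 s. PET9 lay below all 3 steady-state arrays on all 5 late arrays, as did 23.6% of all genes at 300 s and 36.1% at 330 s. Its log2 values of -0.23 at 300 s (95% interval -0.49 to 0.02) and -0.31 at 330 s (-0.59 to -0.02) did not pass (limma adjusted p = 0.156 and 0.0862), and with quantile normalization they did (-0.32 and -0.37, limma adjusted p = 0.0198 and 0.0127).

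AAC3, the form of oxygen-poor growth, was close to the floor throughout. Before the floor was applied its signal was 1.91, 1.80 and 12.2 at steady state and at most 9.24 on the 8 arrays from 30 s to 210 s. It was 14.5, 19.3 and 15.2 at 300 s and 13.4 and 13.7 at 330 s. The late arrays were the only ones above the floor apart from steady-state replicate 3. A rise called below is thus no separate support, since AAC3 met the filter of 2 arrays only through these late signals. No detection calls were used, so whether these signals stand above background is not known. The geometric mean at 300 s was 1.35 times the floor of 12, to which all 3 of the 120 s arrays were set (limma adjusted p = 0.027), a call lost with quantile normalization, without any 1 of the 120 s arrays (adjusted p from 0.0711 to 0.0757) and without 300 s replicate 2 (0.124). The rise from steady state was 0.43 ± 0.13 (SE) on the floored log2 scale at 300 s (limma adjusted p = 0.0231), and 1.09 with a floor of 6, and at 330 s the value of 0.17 did not pass (limma adjusted p = 0.388). The 300 s call was lost with quantile normalization, with hybridization day in the fit, and without 300 s replicate 2 (log2 0.30, limma adjusted p = 0.114). The 3 genes encode similar proteins, and how far their probe sets share signal was not tested.

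MIR1 and DIC1 carry phosphate, MIR1 with protons and DIC1 in exchange for malate or succinate, and in either the replicates differed widely. MIR1 gave 1881, 1686 and 2630.3 at steady state, 2507 and 2822 at 30 s, 2486 and 2699.5 at 60 s and 2388, 2435 and 2694 at 120 s. Its later signals were 2052 at 210 s, 2001, 2297 and 3060.4 at 300 s and 1484 and 1826 at 330 s. Replicate 3 was the highest array in all 5 groups that hold it, for MIR1 and for AAC1, and those 5 arrays share a hybridization day. MIR1 passed in no comparison as reported, with log2 values of 0.25 ± 0.18 (SE) at 300 s and -0.30 ± 0.20 (SE) at 330 s (limma adjusted p = 0.297 and 0.242). With quantile normalization the latter was -0.45 and passed (limma adjusted p = 0.00995). The 330 s arrays lay below all 300 s arrays, as in 21.1% of all genes, with a log2 difference of -0.55 that did not pass (limma adjusted p = 0.139). DIC1 gave 1238, 706 and 1239 at steady state, where replicate 2 lay far below replicates 1 and 3. It was 1205 and 1349 at 30 s, 1192 and 1314 at 60 s and 1408, 1117 and 1252 at 120 s, and then 864 at 210 s, 672, 728 and 1109 at 300 s and 427 and 627 at 330 s. The 330 s arrays were below all others, and the 300 s arrays overlapped the steady state. Of all genes, 36.1% had their 330 s arrays below all steady-state arrays. DIC1 fell 1.99-fold at 330 s (log2 -0.99 ± 0.25 (SE), limma adjusted p = 0.00602), a call lost without 330 s replicate 1 (log2 -0.71, limma adjusted p = 0.119) and with median centring (log2 -0.82, limma adjusted p = 0.0514). At 300 s its value of -0.33 ± 0.22 (SE) did not pass (limma adjusted p = 0.281), but without steady-state replicate 2 it did (log2 -0.60, limma adjusted p = 0.0429). Of the 10 carriers, 0 passed between 300 s and 330 s, against 2.18% of all genes, and 3 had an unadjusted p under 0.05 there (AAC1, MIR1 and DIC1, each lower at 330 s), as had 19.7% of all genes.

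**Figure D3:**
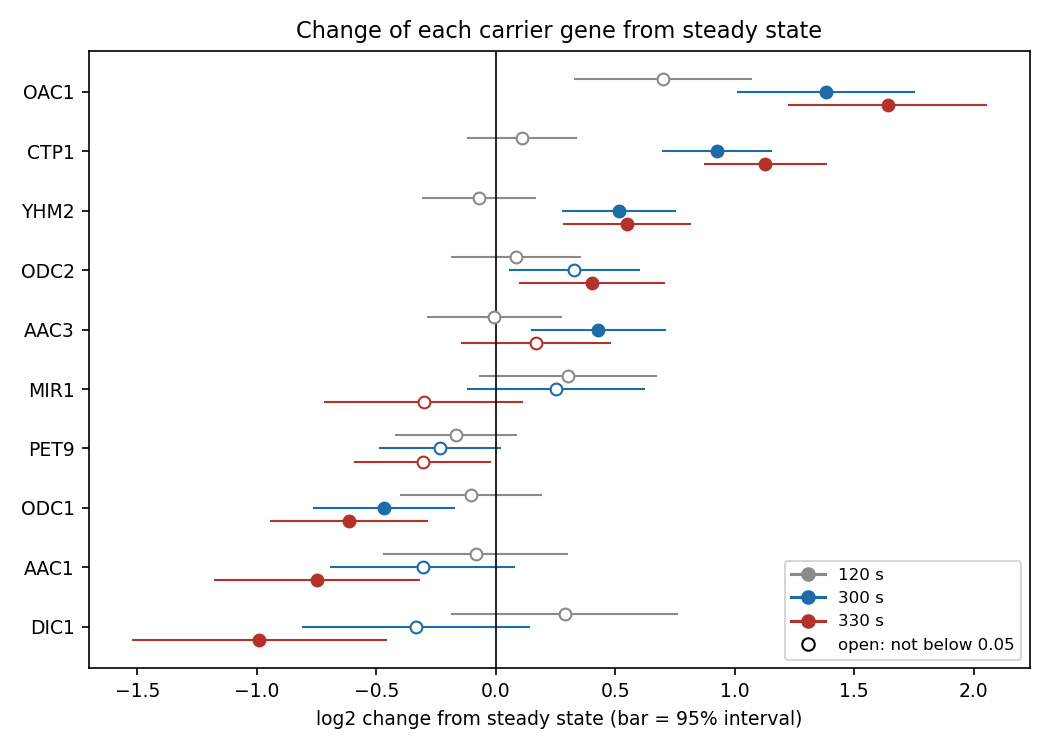
Log2 change of each carrier gene from steady state (x axis) at 120 s, 300 s and 330 s, with 95% intervals from the limma fit; filled points have a Benjamini-Hochberg adjusted p under 0.05. OAC1, CTP1 and YHM2 lie to the right of 0 at 300 s and 330 s, ODC1 to the left at both times, and no point at 120 s is filled.

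Between 120 s and 300 s, 4 of 10 rose and 0 fell, against 11.3% and 10.8% of all genes. These were CTP1 (log2 0.82 ± 0.11 (SE)), OAC1, YHM2 and AAC3, the last tested only because its late arrays exceeded the floor. DIC1 at -0.62 ± 0.22 (SE) and ODC1 at -0.37 ± 0.14 (SE) did not pass (limma adjusted p = 0.0594 and 0.073), though DIC1 did with quantile normalization (0.0389) and without 300 s replicate 3 or steady-state replicate 2 (0.0167 and 0.0245). The count was 2 in place of 4 without 120 s replicate 1, where CTP1 and YHM2 passed. Over the 16 arrays, Pearson's r of the 45 pairs of carriers ran from -0.776 for ODC1 and CTP1 to 0.894 for OAC1 and CTP1. These values are a description, since several arrays share a pulse number or a day.

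Among all tested genes, those whose log2 signal followed each rising carrier most closely over the 16 arrays were found by Pearson's r. For OAC1 they were GPP1 (r = 0.969), LYS20 (r = 0.968) and ISU2 (r = 0.955). GPP1 encodes a glycerol phosphate phosphatase and LYS20 the first enzyme of lysine synthesis, and ISU2 belongs to iron-sulphur cluster assembly. For CTP1 they were NHP2 (r = 0.979), TPO2 (r = 0.974) and GUA1 (r = 0.972), a small nucleolar ribonucleoprotein component, a polyamine exporter and GMP synthase. For YHM2 they were YMC2 (r = 0.954), ETT1 (r = 0.946) and TCD2 (r = 0.945), of which YMC2 is itself a mitochondrial carrier family gene. For ODC2 they were SSO1 (r = 0.910), SNL1 (r = 0.909) and DIA1 (r = 0.894). Of the carriers that fell, ODC1 was closest to LSB5 (r = 0.930), YTP1 (r = 0.874) and DDI1 (r = 0.872), AAC1 to DSC3 (r = 0.934), AVT6 (r = 0.925) and SHR5 (r = 0.922), and DIC1 to HFD1 (r = 0.959), MLC1 (r = 0.954) and HVG1 (r = 0.949). For MIR1 the closest were PMT2 (r = 0.925), YFR018C (r = 0.923) and YKR045C (r = 0.921), for PET9 GTT3 (r = 0.876), HXT7 (r = 0.844) and UGX2 (r = 0.838), and for AAC3, which is at the floor on most arrays, RAD16 (r = 0.919), UGA3 (r = 0.901) and SNR39 (r = 0.882). Several of these arrays share a pulse number or a hybridization day, so the values describe these arrays only.

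The other genes of the carrier family fell more often than they rose, as did all genes on the scale reported. Of 25 listed, 24 were tested, and at 300 s 2 rose and 9 fell, beside 12.1% and 18.3% of all genes. Their median log2 change was -0.36 against -0.12 for all genes. With median centring 3 rose and 6 fell, beside 877 and 537 of all genes. At 330 s, 2 rose and 12 fell, beside 13.3% and 24.3% of all genes. YMC2 rose 2.88-fold at 300 s (log2 1.53 ± 0.18 SE, limma adjusted p = 1.46e-05), the iron carrier MRS4 fell 2.50-fold (limma adjusted p = 0.00161) and PIC2, which carries copper and phosphate, fell 2.27-fold (limma adjusted p = 0.000131). Of the 2 porins of the outer membrane and 3 subunits of the pyruvate carrier, 2 rose and 2 fell. The porin gene POR2 rose 3.49-fold, and the pyruvate carrier genes MPC3 and MPC1 fell 8.54-fold and 1.74-fold (limma adjusted p from 1.05e-08 to 0.000818).

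**Figure D4:**
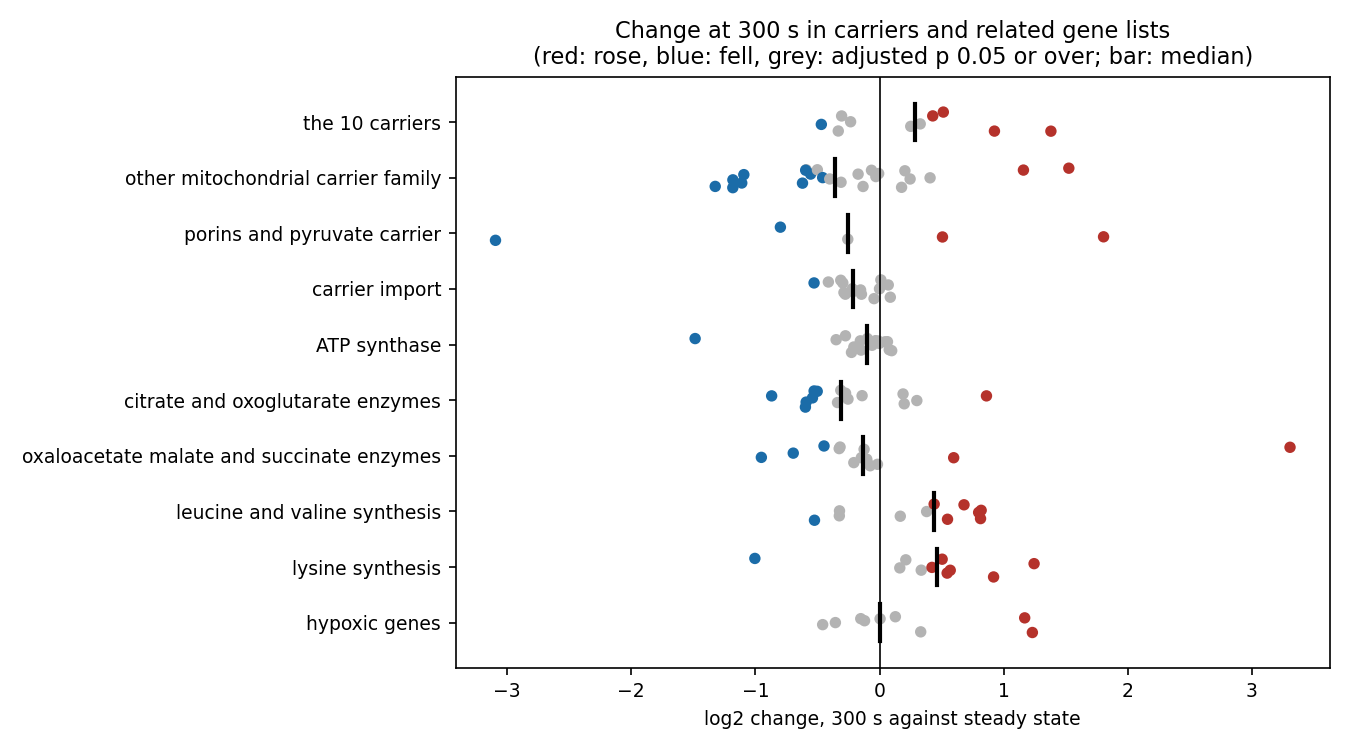
Log2 change at 300 s against steady state (x axis) of the tested genes of each list (rows); each point is 1 gene, red where it rose and blue where it fell at an adjusted p under 0.05, grey otherwise, and the bar is the median. Leucine and valine and lysine synthesis genes lie mostly to the right of 0, other carrier family genes mostly to the left, and the 10 carriers on either side.

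Genes that make proteins around the carriers did not move as one. Of 16 genes of the outer and inner membrane machinery that imports carriers, 0 rose and 1 fell at 300 s. The one that fell was TOM7, a subunit of the outer membrane pore, by 1.44-fold (limma adjusted p = 0.0273). That call was lost with median centring (limma adjusted p = 0.144) and without any of 300 s replicates 1 and 3 and steady-state replicates 2 and 3 (log2 from -0.51 to -0.41). TIM13, a chaperone of the space between the membranes, had a log2 value of -0.41 ± 0.16 that did not pass but did with quantile normalization, with hybridization day or the array-number series as a term, and without steady-state replicate 1 (limma adjusted p from 0.0196 to 0.0467). Of 17 ATP synthase subunits and regulators, 1 fell, STF2, a regulatory factor, by 2.80-fold (limma adjusted p = 8.08e-06). ATP4, a stalk subunit, had a log2 value of -0.35 ± 0.17 (limma adjusted p = 0.126, and 0.0427 without steady-state replicate 3), and 0 members rose. The other 16 had no call at 300 s, and at 330 s 1 of 17 rose and 4 fell, near the 13.3% and 24.3% of all genes.

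Enzymes that make or use the carried acids were mixed. Of 15 tested citrate and oxoglutarate enzymes, 1 rose and 6 fell at 300 s, with a median log2 change of -0.31. With median centring 2 rose and 1 fell, so the balance of this list turns with the scaling, as does that of all genes. The one that rose was CIT2, the peroxisomal citrate synthase, by 1.82-fold (limma adjusted p = 5.15e-05), while IDP3 and IDP2, the peroxisomal and cytosolic isocitrate dehydrogenases, fell 1.83-fold and 1.51-fold (limma adjusted p = 0.00042 and 0.0159). The IDP2 call was lost with median centring (limma adjusted p = 0.138), with hybridization day as a term (0.0868), and without steady-state replicate 1 (log2 -0.38) or 300 s replicate 2 (-0.56). Of 14 oxaloacetate, malate and succinate enzymes, 2 rose and 3 fell. The malic enzyme gene MAE1 rose 9.90-fold, and MDH1 and MDH2, the mitochondrial and cytosolic malate dehydrogenases, fell 1.93-fold and 1.62-fold (limma adjusted p = 3.38e-07, 8.7e-05 and 0.000716).

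Amino acid pathways whose intermediates OAC1, ODC1 and ODC2 carry rose more often than they fell, under all 3 scalings. Of 11 leucine and valine synthesis genes, 6 rose and 1 fell at 300 s, with a median log2 change of 0.44. ILV2, which encodes acetolactate synthase, rose 1.76-fold, LEU2, isopropylmalate dehydrogenase, 1.76-fold, and BAT1, the mitochondrial branched-chain aminotransferase, 1.74-fold (limma adjusted p from 0.000249 to 0.0028). Of 10 lysine synthesis genes, 6 rose and 1 fell, with a median of 0.46. LYS20 rose 2.37-fold and LYS1, the last enzyme, 1.89-fold, while LYS5, which activates the aminoadipate reductase, fell 2.01-fold (limma adjusted p = 3.46e-05, 0.000263 and 6.05e-05). The list of genes tied to oxygen-poor growth, the setting in which AAC3 is used, holds ROX1 and MOT3, which encode repressors of such genes in oxygen, beside their targets. Of its 9 tested members 2 rose and 0 fell. They were the repressor gene ROX1, by 2.35-fold, and ANB1, a translation factor gene of oxygen-poor growth, by 2.25-fold (limma adjusted p = 0.000238 and 0.00146). The share of all genes that passed at 300 s, 30.5%, with 12.1% up and 18.3% down, stands beside all of these counts.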

How the data were processed

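Per the labels, total RNA of 16 culture samples was hybridized to Affymetrix yeast arrays. The authors deposited 1 linear signal intensity per probe set and array, from GCOS per the submitters' processing notes; its version and settings are not in the labels. Intensities were not on a common scale (trimmed array means differed 3.94-fold), so each array was scaled to a mean of 150 after trimming 2% at each end, floored at 12 and logged. Gene names came from the platform annotation and the R64 RefSeq gene table. The brightest of a gene's probe sets stood for it, and a gene had to exceed the floor on at least 2 arrays (246 did not).

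The limma 3.58.1 fit (R 4.3.3, eBayes with a variance trend, 9 residual degrees of freedom) used the 15 arrays of the replicated times, and p-values were adjusted over 5410 genes by Benjamini-Hochberg. The 210 s array entered no test. Precision is limited by how few arrays each time has. The labels say replicated times came from independent cultures. Pairs of related carriers were tested by exact permutation over arrays. Of 31 array pairs with the same pulse number, 20 had deviations from group means correlated above 0.1 (range -0.20 to 0.42). Among them, 13 of the 16 that also shared a hybridization day did, and 7 of the 15 on different days. Of 61 pairs that differed in both number and day, 7 did. Deviations within a group sum to 0, which pushes pairs with different numbers towards negative values, so this last count is partly fixed in advance. The main fit did not use the number as a pairing, so variation shared within a pulse stays in its residual spread. A fit with it as a block is given among the alternatives. Hybridization or scan days in the experiment files, 6 in all, served as a batch.

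The members and the gene lists were chosen with earlier results of these data known. The text names all 10 members, up to 3 genes per list that passed at 300 s with the largest change (where fewer than 2 passed, the 2 largest values), and the 3 genes closest to each member. Other scalings, floors, filters, variance models, blocks and left-out arrays were tried. Sequences of these genes were not used here.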

Additional observations from a re-analysis of the deposited data

Results flagged for a closer look

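The 210 s array entered no comparison, and on it 4 of 10 carriers lay above the highest of the 3 steady-state arrays, as did 19.2% of all genes. OAC1 had a signal of 1509 against at most 972, CTP1 586 against 528, YHM2 594 against 490.3, and ODC2 276 against 238. These are the 4 carriers that had risen at 330 s. PET9, at 1061, lay below its lowest steady-state array, 1265, and 31.7% of all genes lay below theirs. With 1 array at 210 s there is no error for these values.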

How the results depend on the processing

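OAC1 and CTP1 kept their rise and their call at 300 s in all 31 alternatives and at 330 s in all 30, with log2 changes at 300 s of 1.21 to 1.55 and 0.86 to 1.09, and YHM2 did so in all but the one that also asked for a 1.5-fold change. The number of carriers called at 300 s was 5, and 3 with only the compared arrays in the fit or at an adjusted p under 0.01, 2 with the 1.5-fold minimum, and 3 to 6 leaving out 1 array at a time (3 without 300 s replicate 2). At 330 s it was 7, 4 with median centring and 4 to 7 leaving out 1 array (4 without 330 s replicate 1). From 120 s to 300 s it was 4, 2 at an adjusted p under 0.01 and 2 to 5 leaving out 1 array. From 300 s to 330 s it was 0, and 1 with quantile normalization (MIR1). The F test gave 6, and 3 to 8 leaving out 1 array, 3 without 330 s replicate 1. Over all genes, calls also became fewer in the settings named here that lowered the carrier counts. At 300 s they went from 1648 to 938 with only the compared arrays, 952 at 0.01 and 1171 with the 1.5-fold minimum. Without 300 s replicate 2 they were 1240. From 120 s to 300 s, 612 genes rose and 583 fell as reported, and 713 were called at 0.01. Calls over all genes at 330 s and in the F test were also fewer without 330 s replicate 1. The pulse number as a replicate block moved the 120 s count of carriers from 0 to 1, OAC1 (log2 0.70, limma adjusted p = 0.00266), as did the array-number series (1, limma adjusted p = 0.0184). Over all genes the block called 13 in place of 4 at 120 s. The block also called ODC2 at 300 s (limma adjusted p = 0.0463), ATP4 at 300 s (0.0453) and, from 120 s to 300 s, DIC1 (0.0343) and ODC1 (0.0466), and it changed no other call of the carriers, or at 300 s of the genes named from the lists by rule. With hybridization day as a term, 330 s and the F test could not be fitted, and AAC3 had no value with a floor of 24 or a filter of 8 arrays. Where 1 array of a group was left, it was assumed to vary like the other groups. At 300 s alone, 3 against 3 arrays, the exact permutation test cannot go below 0.1, and the differences of ODC1 minus ODC2, AAC3 minus PET9 and AAC1 minus AAC3 were -0.80, 0.66 and -0.73. With all 8 arrays they were -0.89, 0.59 and -0.81, each with an adjusted exact p of 0.0238, the last 2 set by the floor under AAC3. Leaving out 1 array they ranged from -0.98 to -0.84, 0.50 to 0.64 and -0.93 to -0.66, with adjusted exact p of 0.0381 without 300 s replicate 3 and 0.0571 to 0.0762 without any other. With an array fewer, the smallest p that the permutation test can give is larger. The adjusted value also turns on how many pairs reach it, so these p-values do not measure dependence on single arrays. The causes of these differences were not tested.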

Other observations

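Within the carrier family and its neighbours, other related genes also ended on opposite sides at 300 s. These pairs were chosen after their values were seen, and the difference within a pair was not tested. MRS3 and MRS4 both carry iron into mitochondria. MRS3 rose 2.23-fold at 300 s and 2.31-fold at 330 s (limma adjusted p = 7.87e-05 and 0.000105), while MRS4 fell 2.50-fold and 5.19-fold. Of the pyruvate carrier subunits, MPC2 rose 1.42-fold at 300 s (limma adjusted p = 0.00959) and MPC3, its alternative as the partner of MPC1, fell 8.54-fold. The porin gene POR2 rose 3.49-fold, and POR1, the main porin gene, had a log2 value of -0.26 ± 0.12 that did not pass (limma adjusted p = 0.133). In the branched-chain pathway BAT1, the mitochondrial aminotransferase, rose 1.74-fold and BAT2, the cytosolic one, fell 1.44-fold (limma adjusted p = 0.00586), a fall that did not pass with median centring, where 0 of 11 genes of that pathway had fallen.

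Other carriers that fell at 300 s include LEU5, linked to coenzyme A in mitochondria, by 2.27-fold, the carnitine carrier CRC1 by 2.16-fold and SFC1, which exchanges succinate for fumarate, by 2.13-fold (limma adjusted p = 9.66e-05, 0.000511 and 3.09e-05). They were named after their values were seen.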
